A study of Mus musculus with 106 samples.

Results

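The genes described here are 31 genes of microglia, the resident macrophages of the brain. They were chosen by name as genes that microglia express and other brain cells mostly do not, and they are 31 of the 55401 mouse genes listed in the deposited counts. Grouped by role they are 3 complement C1q chains, 9 surface receptors, 3 adaptor and signalling proteins, 7 integrins and leukocyte surface proteins, 4 proteins of the lysosome or of phagocytosis, 2 transcription factors and 3 genes of other function.

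Microglia survey the brain with motile processes, clear debris and dying cells, and respond to injury through receptors for nucleotides, lipids, chemokines and antibodies. They need signalling through the CSF1 receptor to survive, and they supply much of the brain's C1q, the protein that starts the classical complement pathway. Changes in the state of microglia are a known feature of Huntington's disease (HD). In the HD mice of this study, however, staining for Iba1, a microglial protein, gave no obvious microgliosis at any stage examined. That staining shows protein and not RNA.

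RNA came from the cerebrum, without the olfactory bulb, or the cerebellum of 45 mice of about 9 months. HD mice were heterozygous for the long CAG repeat (Hdh Q7/Q200) and controls carried the normal gene (Hdh Q7/Q7), all of them on a 129S4 background. Mice of both genotypes were also heterozygous for RiboTag, an HA-tagged Rpl22 that only cells with Cre express, and for a Cre driver of 1 of 4 lines. These were vGluT2-IRES-Cre (glutamatergic neurons), Gad2-IRES-Cre (GABAergic neurons), PV-IRES-Cre (parvalbumin neurons) and a somatostatin (SST) line that the study's text does not describe. The 67 immunoprecipitation (IP) libraries hold RNA pulled down with tagged ribosomes, and the 39 total RNA libraries come from part of such homogenates, 37 of them from a mouse and region that also has an IP library here. For the PV line, duplicate IPs were pooled. Cerebral IPs number 6 control and 6 HD for Gad2, 6 and 5 for PV, 5 and 4 for SST and 6 and 6 for vGluT2, and cerebellar IPs 6 and 6 for Gad2 and 5 and 6 for vGluT2. Total RNA libraries number 3 control and 3 HD a line and region, except for SST in the cerebrum (4 and 3) and vGluT2 in the cerebellum (4 and 4). The named Cre drivers are those of neurons, and from which cells the members' RNA in an IP came was not tested.

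Library sizes, in counts on mouse genes, ran from 21905238 to 107753596 (median 35866734). The medians of the 24 groups of libraries lay between 29017536 (HD, cerebellar total RNA, Gad2 line) and 45464404 (HD, cerebellar total RNA, vGluT2 line).

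Some libraries stand apart. A control mouse of the SST line has red blood cell genes summing to 1766 CPM (TMM-scaled counts per 1 M counts of the library) in its IP and 9557 CPM in its total RNA, the highest of all IP and of all total RNA libraries. The 3 HD IPs that were sequenced again with longer reads (1 each of cerebellar Gad2, cerebral vGluT2 and PV) were analysed with the others, and protein-coding genes hold only 81.9% of the counts of the vGluT2 one and 77.4% of control cerebellar Gad2 IP replicate 5. Total RNA libraries differ in the share of counts on long transcripts (genes with over 6000 exonic bases), from 19.2% to 32.3% in the cerebrum, and the summed level of the 31 genes follows it. The 5 of 25 cerebral libraries with the lowest share (19.2% to 22.7%) hold the 5 highest sums of microglia genes, 802 to 932 CPM against 434 to 747 CPM in the rest. All 5 are of the PV or SST line. By line, the median sum in cerebral total RNA was 761 CPM for PV, 733 for SST, 614 for vGluT2 and 563 for Gad2. In the cerebellum the 5 of 14 with the lowest share (23.8% to 27.1%) hold sums of 291 to 374 CPM against 196 to 263 CPM. The part of this share in the results below was not tested, except that some fits named below hold it as a covariate.

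A pattern noticed after the values were seen concerns the mitochondrial share of the counts. In the cerebellum, the 5 total RNA libraries with the lowest mitochondrial share (2.54% to 4.71%, rest 5.10% to 9.21%) had the lowest levels of 3 of the 31 members (2.85% of all genes). *Gpr34*, a receptor for lysophosphatidylserine, was at 0.685 to 1.06 CPM in them and at 2.75 to 4.797 CPM in the other 9. *P2ry12*, a receptor for ADP that guides microglial processes to injury, was at 3.72 to 5.36 CPM against 7.71 to 11.8 CPM. For *Cd53*, a tetraspanin of leukocytes, the values were 1.30 to 2.41 CPM against 2.71 to 4.11 CPM. The other 28 members overlapped between these libraries and the rest. *Gpr34* alone showed the same in the cerebrum (1.83% of all genes), with 1.56 to 3.42 CPM in the 6 of 25 libraries with the lowest share (1.92% to 2.85%) and 5.34 to 15.2 CPM in the rest. The part of the mitochondrial share in the results was not tested.

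The label was checked against levels in total RNA. All 31 genes passed the low count filter (mean count over 10) in total RNA of both regions, and 0 of 31 had no counts in at least 50% of the libraries of a region. Genes of border macrophages, the macrophages of meninges and vessels, are close relatives, and their most abundant gene *Stab1* had a mean of 7.27 CPM in cerebral total RNA. Of 14 genes of blood leukocytes, 5 reached the filter in cerebral total RNA, where *Trbc2* was the most abundant (mean 9.24 CPM), and 8 had no counts in at least 50% of the cerebral IPs. *Itgam*, the integrin CD11b, shares 3450 bases of exon (68.7%) with an overlapping protein-coding gene on the same strand, so its counts are uncertain. *Csf1r* shares 873 bases of exon with *Hmgxb3* on the opposite strand, and the kit was stranded.

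Levels can be compared between genes only per length. In control total RNA of the cerebrum (13 libraries), CPM per kilobase of exon were highest for *C1qa* (49.2, SD 16.6), *C1qb* (46.9, SD 14.4), the cathepsin gene *Ctss* (34.7, SD 6.28), the adaptor gene *Tyrobp* (22.4, SD 6.07) and *C1qc* (21.7, SD 5.86). The lowest were *Irf8* (0.895, SD 0.214), *Hpgds* (0.145, SD 0.111) and *Ptprc* (0.0573, SD 0.0339). No 2 neighbours in this order had ranges apart from each other. Cerebellar control total RNA (7 libraries) was led by *Ctss* (17.5, SD 1.89), *C1qa* (14.6, SD 2.49) and *C1qb* (14.1, SD 3.15). There, only *Csf1r* (5.97, SD 0.916) and *Laptm5* (4.35, SD 0.411) were neighbours with ranges apart.

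Promoters were read for the motif GAGGAAGT, which is the core site bound by PU.1 (the product of *Spi1*), a transcription factor that macrophages depend on. Of the 31 members, 23 are in the RefSeq table of promoters (250 bases before to 50 after the start, build GRCm38.p6), and 5 of these carry the motif on either strand (ACTTCCTC when read on the other strand): *Inpp5d*, *Ctss*, *Cd53*, *C1qc* and *Hpgds*. Over the whole table, 997 of 27025 genes (3.69%) and 1052 of 32851 promoters (3.20%) carry it. A match is a description, and binding was not measured. Not in the table are *C1qa*, *Csf1r*, *Tmem119*, *Tyrobp*, *Gpr34*, *Selplg*, *Spi1* and *Itgb2*. Shown 5′ to 3′ on the strand of the gene, with the motif in capitals, are 4 of the 5, as examples of members with the motif (*Cd53* is not shown):
C1qc chr4:136892865-136893164 (- strand): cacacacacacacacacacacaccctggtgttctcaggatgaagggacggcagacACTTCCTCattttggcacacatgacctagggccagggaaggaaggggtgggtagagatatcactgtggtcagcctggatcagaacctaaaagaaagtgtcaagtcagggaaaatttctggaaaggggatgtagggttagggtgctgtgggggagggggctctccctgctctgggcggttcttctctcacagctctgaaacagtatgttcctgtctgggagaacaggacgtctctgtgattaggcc
Ctss chr3:95526536-95526835 (+ strand): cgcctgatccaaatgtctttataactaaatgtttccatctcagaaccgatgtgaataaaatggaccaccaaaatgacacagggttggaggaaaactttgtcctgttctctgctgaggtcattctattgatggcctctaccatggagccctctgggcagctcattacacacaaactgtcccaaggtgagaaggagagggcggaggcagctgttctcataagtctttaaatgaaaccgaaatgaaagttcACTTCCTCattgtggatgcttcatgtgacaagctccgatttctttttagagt
Hpgds chr6:65144681-65144980 (- strand): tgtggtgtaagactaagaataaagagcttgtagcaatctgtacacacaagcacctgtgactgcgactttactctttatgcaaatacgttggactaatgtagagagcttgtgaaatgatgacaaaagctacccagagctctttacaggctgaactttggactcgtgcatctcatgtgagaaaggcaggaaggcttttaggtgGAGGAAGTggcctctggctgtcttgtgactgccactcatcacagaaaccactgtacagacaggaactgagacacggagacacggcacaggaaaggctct
Inpp5d chr1:87620062-87620361 (+ strand): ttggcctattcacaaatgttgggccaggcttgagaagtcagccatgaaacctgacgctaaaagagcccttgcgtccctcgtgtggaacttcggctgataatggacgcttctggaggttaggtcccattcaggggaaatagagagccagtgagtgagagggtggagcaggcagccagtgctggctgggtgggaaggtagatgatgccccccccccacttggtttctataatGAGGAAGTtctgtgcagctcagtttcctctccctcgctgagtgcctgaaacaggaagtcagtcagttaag

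Microglia genes were lower in the IPs than in total RNA in each of the 6 line and region combinations, weakly in Gad2 IPs and strongly in vGluT2 IPs. Each combination was fitted by the quasi-likelihood test of edgeR with genotype in the model, p-values were adjusted over all genes tested by the method of Benjamini and Hochberg, and a gene is called at an adjusted p of 0.05 or less. In cerebral Gad2 IPs, 25 of 31 members were called lower than in total RNA (25.4% of all genes were), with a median log2 ratio of −0.94 against 0.03 over all genes. PV IPs had 28 members lower (35.9% of all genes) and 1 higher (35.7%), with a median of −2.78 (all genes 0.01). For SST the counts were 28 lower (31.2%) and 1 higher (32.2%), with a median of −1.99 (all genes −0.01). Cerebral vGluT2 IPs had 29 members lower (28.2%), median −4.16 (all genes 0.00). In the cerebellum 25 members were lower in Gad2 IPs (32.7%), median −1.16 (all genes −0.02), and 31 in vGluT2 IPs (31.8%), median −3.63 (all genes 0.07). With fewer microglial cells and less RNA per microglial cell giving the same values in bulk samples, those cannot be told apart in anything that follows.

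Scaling matters for PV and SST IPs. Without TMM scaling the median log2 ratio of all genes moves by 0.17 in PV and by 0.17 in SST, and the share of higher genes among those called in SST goes from 50.8% to 62.7%. Relative to all genes, the members' median was −2.78 with TMM and −2.77 without in PV, and −1.98 with either in SST.

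The summed level of the 31 genes shows the same in each mouse. In cerebral IPs the sum had a median of 295 CPM for Gad2 (150 to 711, lowest to highest), 116 CPM for PV (81.3 to 135), 159 CPM for SST (130 to 236) and 32.5 CPM for vGluT2 (27.9 to 69.3). Cerebral total RNA stood at 663 CPM (434 to 932, 25 libraries). Cerebellar sums were 124 CPM in Gad2 IPs (57.1 to 228), 22.2 CPM in vGluT2 IPs (15.3 to 34.7) and 248 CPM in total RNA (196 to 374, 14 libraries). Only Gad2 IPs overlap total RNA in this sum. In the 37 pairs of IP and total RNA from 1 mouse and region, the IP was below its own total RNA each time. It held 25.0% to 82.6% of that level for cerebral Gad2 (median 56.4%), 10.4% to 22.3% for PV (14.9%), 18.2% to 33.4% for SST (23.1%) and 4.46% to 10.6% for cerebral vGluT2 (4.84%). For the cerebellum it was 21.7% to 68.0% for Gad2 (48.7%) and 6.01% to 14.9% for vGluT2 (9.40%).

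**Figure D1:**
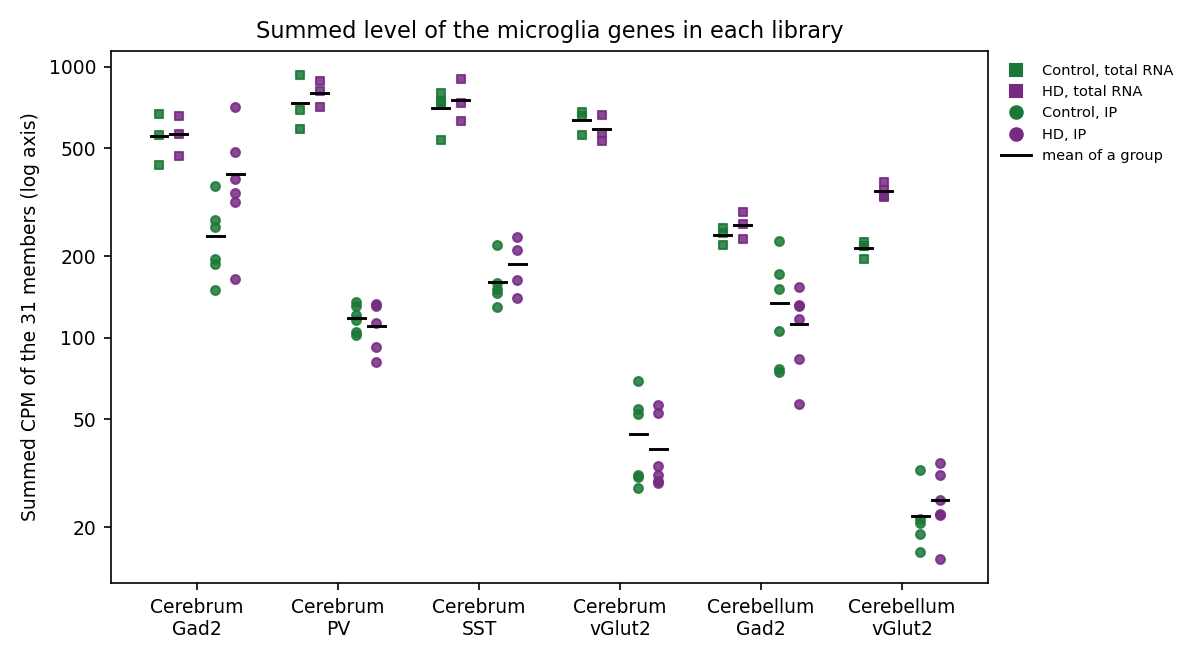
Summed level of the 31 microglia genes (CPM, log scale) in each library, by line, region and preparation, with controls in green and HD in purple. The cerebral vGluT2 IPs lie between 27.9 and 69.3 CPM, and the cerebral Gad2 IPs, up to 711 CPM, reach into the range of total RNA.

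The C1q chains were lower in all 6 combinations, near the median of the 31 members in Gad2 IPs and further from 0 than it for *C1qb* and *C1qc* in the others. Levels are given as the median with the lowest and highest library in brackets. In the cerebrum *C1qa*, the A chain, was at 49.3 CPM in total RNA (23.99 to 91.3), 17.5 in Gad2 IPs (10.01 to 61.1), 7.53 in PV IPs (4.24 to 8.66), 8.29 in SST IPs (4.39 to 17.3) and 1.90 in vGluT2 IPs (0 to 6.59). Its cerebral log2 ratios against total RNA were −0.93 (SE 0.302, adjusted p = 0.0163) in Gad2, −3.03 (SE 0.173, adjusted p = 6.13e-11) in PV, −2.50 (SE 0.233, adjusted p = 8.25e-08) in SST and −4.46 (SE 0.465, adjusted p = 2.07e-07) in vGluT2 IPs. All PV, SST and vGluT2 IPs lie below all total RNA libraries of their line, Gad2 IPs overlap them, and without control Gad2 total RNA replicate 3 the Gad2 ratio is −0.73 (adjusted p = 0.0571) and no longer called. In the cerebellum its levels were 18.5 CPM in total RNA (11.7 to 33.4), 7.81 in Gad2 IPs (4.59 to 18.6) and 1.56 in vGluT2 IPs (1.01 to 3.40). There the ratios for *C1qa* were −1.09 (SE 0.235, adjusted p = 0.000507) in Gad2 and −3.57 (SE 0.184, adjusted p = 7.97e-13) in vGluT2 IPs, with overlap for Gad2 and none for vGluT2.

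*C1qb*, the B chain, was at 49.1 CPM in total RNA (21.9 to 87.3), 18.8 in Gad2 IPs (10.4 to 50.01), 2.44 in PV IPs (0.995 to 3.67), 3.53 in SST IPs (2.57 to 10.7) and 0.888 in vGluT2 IPs (0.0202 to 3.59) in the cerebrum. Ratios of *C1qb* were −0.94 (SE 0.273, adjusted p = 0.00843) in Gad2, −4.53 (SE 0.205, adjusted p = 4.56e-12) in PV, −3.39 (SE 0.273, adjusted p = 1.74e-08) in SST and −5.10 (SE 0.470, adjusted p = 3.73e-08) in vGluT2 IPs, the lowest of all members in PV, SST and cerebral vGluT2 IPs. The Gad2 IPs overlap total RNA and the other 3 kinds of cerebral IP do not. Cerebellar *C1qb* was at 19.5 CPM in total RNA (11.7 to 30.6), 7.25 in Gad2 IPs (2.83 to 16.7) and 1.03 in vGluT2 IPs (0.684 to 2.26), with ratios of −1.32 (SE 0.265, adjusted p = 0.000256) in Gad2 and −4.18 (SE 0.176, adjusted p = 6.62e-14) in vGluT2 IPs. *C1qc*, the C chain, had cerebral levels of 39.1 CPM in total RNA (19.1 to 72.5), 16.3 in Gad2 IPs (6.71 to 42.7), 3.69 in PV IPs (2.28 to 4.66), 4.74 in SST IPs (4.20 to 9.84) and 0.751 in vGluT2 IPs (0.392 to 2.69). The ratios of *C1qc* were −1.05 (SE 0.286, adjusted p = 0.00515) in Gad2, −3.69 (SE 0.178, adjusted p = 8.79e-12) in PV, −2.83 (SE 0.213, adjusted p = 1.06e-08) in SST and −4.91 (SE 0.372, adjusted p = 2.41e-09) in vGluT2 IPs. Again only Gad2 IPs overlap total RNA. For the cerebellum *C1qc* levels were 17.3 CPM in total RNA (9.28 to 29.8), 6.53 in Gad2 IPs (2.83 to 13.04) and 1.13 in vGluT2 IPs (0.367 to 2.53), and ratios −1.28 (SE 0.242, adjusted p = 0.000137) in Gad2 and −3.95 (SE 0.243, adjusted p = 1.11e-11) in vGluT2 IPs. The 3 chains had median ratios of −0.94 in cerebral Gad2, −3.69 in PV, −2.83 in SST, −4.91 in cerebral vGluT2, −1.28 in Gad2 IPs of the cerebellum and −3.95 in its vGluT2 IPs.

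Among the 9 receptors, *Csf1r* encodes the receptor for CSF1 and IL-34 that keeps microglia alive. It was at 112 CPM in total RNA (63.5 to 169.7), 40.6 in Gad2 IPs (19.2 to 113), 20.8 in PV IPs (14.9 to 26.2), 26.3 in SST IPs (19.98 to 32.7) and 3.97 in vGluT2 IPs (2.21 to 7.82) in the cerebrum. Its ratios were −1.09 (SE 0.270, adjusted p = 0.00266) in Gad2, −2.55 (SE 0.117, adjusted p = 5.13e-12) in PV, −2.12 (SE 0.114, adjusted p = 5.95e-10) in SST and −4.53 (SE 0.243, adjusted p = 1.44e-11) in vGluT2 IPs. Gad2 IPs overlap the total RNA of their line, and each other kind of cerebral IP lies below all of its own. In the cerebellum *Csf1r* was at 40.2 CPM in total RNA (28.7 to 69.7), 19.3 in Gad2 IPs (8.70 to 31.3) and 3.19 in vGluT2 IPs (2.11 to 4.35), with ratios of −1.11 (SE 0.210, adjusted p = 0.000146) in Gad2 and −3.83 (SE 0.168, adjusted p = 1.14e-13) in vGluT2 IPs. *Cx3cr1*, the receptor for fractalkine from neurons, was at 43.5 CPM in total RNA (37.1 to 56.9), 19.6 in Gad2 IPs (10.7 to 32.6), 17.8 in PV IPs (10.8 to 20.2), 29.8 in SST IPs (17.6 to 37.7) and 3.14 in vGluT2 IPs (1.84 to 5.74) in the cerebrum. For *Cx3cr1* the ratios were −1.04 (SE 0.208, adjusted p = 0.000417) in Gad2, −1.42 (SE 0.136, adjusted p = 4.75e-08) in PV, −0.68 (SE 0.137, adjusted p = 0.000295) in SST and −3.66 (SE 0.213, adjusted p = 4.83e-11) in vGluT2 IPs. All 4 kinds of cerebral IP lie below all total RNA of their line. Cerebellar levels of *Cx3cr1* were 17.7 CPM in total RNA (13.6 to 23.4), 8.24 in Gad2 IPs (3.30 to 16.1) and 1.76 in vGluT2 IPs (1.09 to 2.96), with ratios of −0.90 (SE 0.222, adjusted p = 0.00169) in Gad2 and −3.31 (SE 0.169, adjusted p = 6.34e-13) in vGluT2 IPs.

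Cerebral *P2ry12* was at 19.4 CPM in total RNA (8.01 to 33.0), 10.4 in Gad2 IPs (3.11 to 18.6), 2.70 in PV IPs (1.16 to 4.13), 3.76 in SST IPs (1.68 to 13.04) and 0.815 in vGluT2 IPs (0.392 to 3.07). The ratios of *P2ry12* were −0.87 (SE 0.352, adjusted p = 0.0483) in Gad2, −2.90 (SE 0.274, adjusted p = 4.05e-08) in PV, −1.98 (SE 0.323, adjusted p = 4.09e-05) in SST and −4.12 (SE 0.380, adjusted p = 3.84e-08) in vGluT2 IPs. Gad2 IPs overlap total RNA, and the Gad2 call is lost without control total RNA replicate 1 (−0.69, adjusted p = 0.142) or 2 (−0.85, 0.0851) and without HD total RNA replicate 1 (−0.68, 0.14) or 2 (−0.92, 0.0604). In the cerebellum it was at 8.59 CPM in total RNA (3.72 to 11.8), 3.98 in Gad2 IPs (1.08 to 8.96) and 0.571 in vGluT2 IPs (0.219 to 1.16), with ratios of −0.94 (SE 0.341, adjusted p = 0.0223) in Gad2 and −3.86 (SE 0.320, adjusted p = 1.36e-09) in vGluT2 IPs. That Gad2 call is lost without control total RNA replicate 2 (−0.87, 0.0512) or HD total RNA replicate 3 (−0.80, 0.0626). *Trem2*, a lipid receptor that signals through TYROBP, was at 10.4 CPM in total RNA (5.82 to 19.6), 4.30 in Gad2 IPs (1.99 to 11.0), 1.81 in PV IPs (1.07 to 2.88), 2.41 in SST IPs (1.94 to 4.20) and 1.25 in vGluT2 IPs (0.722 to 3.23) in the cerebrum. Ratios for *Trem2* were −1.05 (SE 0.292, adjusted p = 0.00623) in Gad2, −2.51 (SE 0.210, adjusted p = 9.02e-09) in PV, −2.06 (SE 0.178, adjusted p = 3.75e-08) in SST and −2.76 (SE 0.270, adjusted p = 8.85e-08) in vGluT2 IPs. PV, SST and vGluT2 IPs lie below all total RNA of their line and Gad2 IPs overlap it. Cerebellar *Trem2* was at 3.56 CPM in total RNA (2.53 to 7.16), 1.74 in Gad2 IPs (0 to 3.03) and 0.332 in vGluT2 IPs (0 to 0.553), with ratios of −1.17 (SE 0.404, adjusted p = 0.0169) in Gad2 and −3.73 (SE 0.365, adjusted p = 1.79e-08) in vGluT2 IPs.

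The other receptors are *P2ry13* (a receptor for ADP), *Siglech* (a sialic acid-binding lectin), *Gpr34*, *Fcrls* (Fc receptor-like) and *Fcgr3* (a low-affinity receptor for antibodies). Of the 9 receptors, 8 were lower in cerebral Gad2 IPs (25.4% of all genes were). In PV (35.9%), SST (31.2%) and cerebral vGluT2 IPs (28.2%) all 9 were lower. For the cerebellum it was 7 in Gad2 (32.7%) and 9 in vGluT2 IPs (31.8%). *Siglech* was the least depleted receptor in SST IPs, with a ratio of −0.50 (SE 0.178, adjusted p = 0.0192). Among the most depleted members in cerebellar Gad2 IPs was *Fcrls*, with a ratio of −1.73 (SE 0.442, adjusted p = 0.00217).

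Adaptors and signalling proteins carry the receptors' signal into the cell. *Tyrobp* encodes DAP12, the partner of TREM2, and was at 14.5 CPM in total RNA (7.54 to 26.1), 5.27 in Gad2 IPs (2.17 to 11.8), 0.796 in PV IPs (0.349 to 1.49), 1.60 in SST IPs (0.487 to 4.55) and 0.554 in vGluT2 IPs (0.125 to 4.10) in the cerebrum. Its ratios were −1.41 (SE 0.301, adjusted p = 0.00073) in Gad2, −4.32 (SE 0.216, adjusted p = 1.21e-11) in PV, −2.95 (SE 0.294, adjusted p = 1.71e-07) in SST and −4.16 (SE 0.547, adjusted p = 3.81e-06) in vGluT2 IPs. Except in Gad2 IPs, each IP lies below all total RNA of its line. In the cerebellum *Tyrobp* was at 6.74 CPM in total RNA (4.67 to 10.2), 1.63 in Gad2 IPs (0.761 to 4.79) and 0.239 in vGluT2 IPs (0 to 0.639), with ratios of −2.01 (SE 0.271, adjusted p = 2.89e-06) in Gad2 and −4.72 (SE 0.331, adjusted p = 9.3e-11) in vGluT2 IPs, the lowest of the members in both kinds of cerebellar IP. *Inpp5d*, the phosphatase SHIP1, was among the members least lowered in cerebral vGluT2 IPs, with a ratio of −0.85 (SE 0.269, adjusted p = 0.0119), and its vGluT2 IPs overlap total RNA. *Fcer1g*, the shared chain of Fc receptors, was lower in all 6 combinations, with ratios from −0.88 (cerebral Gad2) to −4.41 (cerebral vGluT2).

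Among surface proteins of leukocytes, *Tmem119* encodes a membrane protein that in the brain marks microglia. Cerebral levels of *Tmem119* were 37.1 CPM in total RNA (18.1 to 59.1), 13.6 in Gad2 IPs (7.00 to 35.8), 3.13 in PV IPs (2.35 to 5.95), 5.31 in SST IPs (4.47 to 10.3) and 0.802 in vGluT2 IPs (0 to 2.85). The ratios were −1.01 (SE 0.277, adjusted p = 0.0054) in Gad2, −3.57 (SE 0.172, adjusted p = 8.58e-12) in PV, −2.53 (SE 0.165, adjusted p = 3.59e-09) in SST and −5.06 (SE 0.449, adjusted p = 2.25e-08) in vGluT2 IPs, and only Gad2 IPs overlap total RNA. Cerebellar levels were 11.5 CPM in total RNA (8.08 to 21.5), 4.14 in Gad2 IPs (1.33 to 8.66) and 0.728 in vGluT2 IPs (0.477 to 1.85), with ratios of −1.46 (SE 0.273, adjusted p = 0.000123) in Gad2 and −4.10 (SE 0.228, adjusted p = 2.5e-12) in vGluT2 IPs. *Itgam*, whose counts are uncertain for the reason given above, was at 11.0 CPM in total RNA (8.01 to 14.2), 4.29 in Gad2 IPs (1.28 to 9.65), 3.67 in PV IPs (2.81 to 4.96), 5.11 in SST IPs (4.002 to 5.40) and 0.635 in vGluT2 IPs (0.345 to 1.44) in the cerebrum. For *Itgam* the ratios were −1.24 (SE 0.277, adjusted p = 0.00104) in Gad2, −1.51 (SE 0.139, adjusted p = 2.92e-08) in PV, −1.12 (SE 0.107, adjusted p = 1.06e-07) in SST and −4.12 (SE 0.229, adjusted p = 2.49e-11) in vGluT2 IPs, with all IPs below all total RNA of the line in all 4 lines. In the cerebellum *Itgam* was at 3.896 CPM in total RNA (2.87 to 5.42), 2.30 in Gad2 IPs (1.21 to 5.99) and 0.548 in vGluT2 IPs (0.3501 to 1.22), with ratios of −0.79 (SE 0.2501, adjusted p = 0.0103) in Gad2 and −2.56 (SE 0.268, adjusted p = 4.78e-08) in vGluT2 IPs.

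*Ptprc*, the phosphatase CD45 of all leukocytes, differs between the lines. Its cerebral levels were 0.893 CPM in total RNA (0.0717 to 3.17), 0.541 in Gad2 IPs (0.142 to 0.994), 0.740 in PV IPs (0.519 to 1.02), 1.43 in SST IPs (0.688 to 1.84) and 0.510 in vGluT2 IPs (0 to 1.999). It had the lowest ratio of the members in cerebral Gad2 IPs and was not called in the other cerebral IPs, with ratios of −1.63 (SE 0.430, adjusted p = 0.00418) in Gad2, 0.22 (SE 0.376, adjusted p = 0.607) in PV, 0.37 (SE 0.244, adjusted p = 0.199) in SST and −1.10 (SE 0.523, adjusted p = 0.0847) in vGluT2 IPs. All 4 kinds of IP overlap total RNA. In PV the ratio runs from 0.01 without control total RNA replicate 3 to 0.72 without control total RNA replicate 2, not called in either. Among the 3 most depleted members were *Cd53* in PV (−4.17, SE 0.323, adjusted p = 3.16e-09), after *C1qb* and *Tyrobp*, and *Selplg*, the ligand of selectins, in cerebral vGluT2 IPs (−5.07, SE 0.444, adjusted p = 1.87e-08). *Ly86*, the partner of an endotoxin receptor homologue, was at −1.33 (SE 0.266, adjusted p = 0.000419) in cerebral Gad2 IPs. *Itgb2*, the integrin chain CD18 that pairs with CD11b, was among the least depleted in cerebellar Gad2 IPs and not called (−0.45, SE 0.281, adjusted p = 0.176).

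Of the 4 lysosomal and phagocytic genes, *Ctss* encodes cathepsin S. Cerebral *Ctss* was at 48.3 CPM in total RNA (34.3 to 75.6), 37.0 in Gad2 IPs (13.7 to 93.1), 9.92 in PV IPs (5.03 to 11.2), 11.4 in SST IPs (6.96 to 19.6) and 1.89 in vGluT2 IPs (0 to 4.79). Ratios of *Ctss* were −0.34 (SE 0.272, adjusted p = 0.32) in Gad2, −2.50 (SE 0.153, adjusted p = 1.47e-10) in PV, −2.04 (SE 0.191, adjusted p = 8.23e-08) in SST and −4.36 (SE 0.454, adjusted p = 2.01e-07) in vGluT2 IPs, not called in Gad2, where the IPs overlap total RNA. In the cerebellum its levels were 25.3 CPM in total RNA (20.7 to 34.2), 16.4 in Gad2 IPs (8.27 to 36.6) and 2.88 in vGluT2 IPs (1.23 to 5.08), with ratios of −0.55 (SE 0.256, adjusted p = 0.0697) in Gad2 and −3.24 (SE 0.213, adjusted p = 3.37e-11) in vGluT2 IPs, again not called in Gad2. *Cd68*, a lysosomal membrane protein, had the highest ratio of the members in cerebral Gad2 IPs and was not called there (0.02, SE 0.178, adjusted p = 0.933), with a sign that changes when single total RNA libraries are left out (−0.07 to 0.14). *Mpeg1*, the pore former perforin-2, was near 0 and not called in PV (−0.01, SE 0.218, adjusted p = 0.963) and SST IPs (0.23, SE 0.144, adjusted p = 0.165). Without single total RNA or HD IP libraries the PV ratio of *Mpeg1* ran from −0.17 to 0.15. *Laptm5*, a lysosomal protein of blood cells, was lower in all 6, from −0.92 in cerebral Gad2 to −4.77 in cerebral vGluT2 IPs.

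The transcription factor genes *Spi1* (PU.1) and *Irf8* were lower in all 6 combinations. *Spi1* was at 4.76 CPM in total RNA (2.28 to 7.61), 1.69 in Gad2 IPs (0.886 to 3.83), 0.982 in PV IPs (0.602 to 2.24), 1.89 in SST IPs (1.23 to 2.66) and 0.230 in vGluT2 IPs (0 to 0.380) in the cerebrum. Its ratios were −0.99 (SE 0.257, adjusted p = 0.00369) in Gad2, −2.16 (SE 0.227, adjusted p = 1.52e-07) in PV, −1.34 (SE 0.159, adjusted p = 1.26e-06) in SST and −4.37 (SE 0.391, adjusted p = 2.49e-08) in vGluT2 IPs. Except for Gad2, IPs lie below all total RNA of their line. In the cerebellum *Spi1* was at 1.497 CPM in total RNA (0.786 to 3.03), 0.564 in Gad2 IPs (0 to 0.991) and 0.191 in vGluT2 IPs (0.0305 to 0.337), with ratios of −1.41 (SE 0.374, adjusted p = 0.00303) in Gad2 and −3.20 (SE 0.356, adjusted p = 1.21e-07) in vGluT2 IPs. *Irf8*, which maintains the microglial state, was at 6.25 CPM in total RNA (3.35 to 9.33), 3.02 in Gad2 IPs (1.57 to 6.65), 1.79 in PV IPs (1.39 to 2.52), 2.63 in SST IPs (1.18 to 4.28) and 0.766 in vGluT2 IPs (0 to 1.28) in the cerebrum. For *Irf8* the ratios were −0.68 (SE 0.251, adjusted p = 0.0318) in Gad2, −1.78 (SE 0.143, adjusted p = 5.02e-09) in PV, −1.30 (SE 0.193, adjusted p = 1.59e-05) in SST and −3.12 (SE 0.405, adjusted p = 3.28e-06) in vGluT2 IPs. Gad2 IPs overlap total RNA, and the call there is lost without control total RNA replicate 2 (−0.62, 0.0713) or 3 (−0.53, 0.104) or HD total RNA replicate 3 (−0.69, 0.0512). Cerebellar *Irf8* was at 2.59 CPM in total RNA (1.799 to 4.23), 1.29 in Gad2 IPs (0.589 to 1.77) and 0.409 in vGluT2 IPs (0.159 to 1.07), with ratios of −1.09 (SE 0.218, adjusted p = 0.000242) in Gad2 and −2.79 (SE 0.284, adjusted p = 3.32e-08) in vGluT2 IPs.

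Of the remaining 3 genes, *Aif1* encodes IBA1, an actin-binding protein used to stain microglia. Cerebral *Aif1* was at 4.64 CPM in total RNA (3.58 to 14.5), 3.57 in Gad2 IPs (1.37 to 6.49), 0.593 in PV IPs (0.183 to 1.27), 1.17 in SST IPs (0.258 to 4.71) and 0.879 in vGluT2 IPs (0 to 1.41). Its ratios were −0.51 (SE 0.2499, adjusted p = 0.106) in Gad2, −2.94 (SE 0.280, adjusted p = 4.41e-08) in PV, −1.60 (SE 0.406, adjusted p = 0.00224) in SST and −2.79 (SE 0.425, adjusted p = 2.07e-05) in vGluT2 IPs. PV and vGluT2 IPs lie below all total RNA of their line, and Gad2 and SST IPs overlap it. In Gad2 IPs it was not called, with a ratio of −0.30 without control total RNA replicate 3. Cerebellar *Aif1* was at 2.11 CPM in total RNA (1.26 to 3.99), 0.943 in Gad2 IPs (0.326 to 2.42) and 0.136 in vGluT2 IPs (0 to 0.458), with ratios of −1.11 (SE 0.324, adjusted p = 0.00599) in Gad2 and −3.65 (SE 0.425, adjusted p = 2.23e-07) in vGluT2 IPs. *Hpgds*, which makes prostaglandin D2, is the 1 member that was higher in PV and SST IPs. In the cerebrum it was at 0.744 CPM in total RNA (0.219 to 4.10), 0.8292 in Gad2 IPs (0.448 to 1.81), 1.67 in PV IPs (0.687 to 2.34), 2.12 in SST IPs (1.59 to 4.27) and 0.487 in vGluT2 IPs (0.0714 to 3.39). The ratios of *Hpgds* were −0.79 (SE 0.440, adjusted p = 0.15) in Gad2, 1.67 (SE 0.298, adjusted p = 7.2e-05) in PV, 2.01 (SE 0.281, adjusted p = 7.85e-06) in SST and −0.82 (SE 0.543, adjusted p = 0.213) in vGluT2 IPs. PV and SST IPs are high, yet both overlap total RNA, and the Gad2 ratio, not called, is −0.22 without HD total RNA replicate 1. In the cerebellum *Hpgds* was at 0.608 CPM in total RNA (0.171 to 1.16), 0.615 in Gad2 IPs (0.105 to 0.991) and 0.153 in vGluT2 IPs (0 to 0.314), with ratios of −0.39 (SE 0.392, adjusted p = 0.401) in Gad2 and −1.72 (SE 0.453, adjusted p = 0.0023) in vGluT2 IPs. *Olfml3*, a secreted matrix protein, was lower in all 6, from −0.87 in cerebral Gad2 to −4.30 in cerebral vGluT2 IPs.

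**Figure D2:**
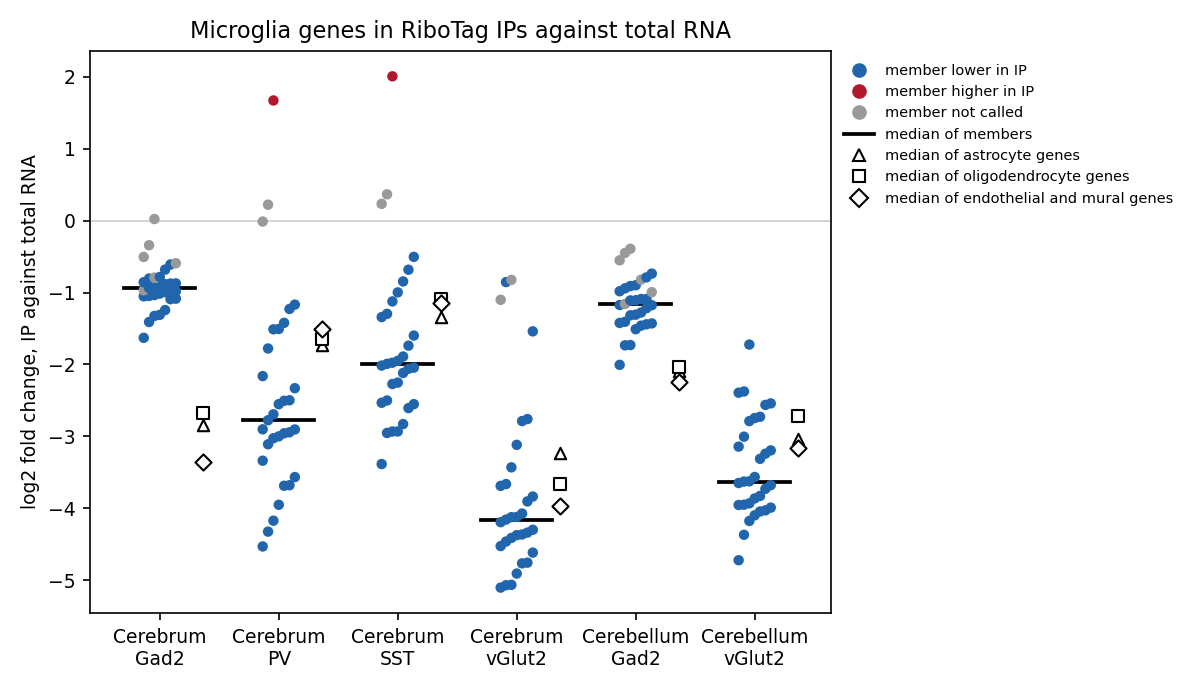
Log2 ratio of IP to total RNA by edgeR (vertical axis) of each of the 31 members in the 6 line and region combinations, with medians of 3 other cell types' genes beside them. *Hpgds*, in red, is the highest member in PV (1.67) and SST (2.01), and *C1qb* is the lowest in cerebral vGluT2 (−5.10).

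All IP libraries lie below all total RNA libraries of the line for 2 of 31 members in cerebral Gad2 (*Cx3cr1*, *Itgam*, against 12.0% of all genes), 27 in PV (21.8%), 25 in SST (13.5%) and 28 in cerebral vGluT2 IPs (13.2%). In the cerebellum it is so for 8 in Gad2 (14.6%) and 29 in vGluT2 IPs (15.4%). The overlapping members in cerebral vGluT2 IPs are *Ptprc*, *Inpp5d* and *Hpgds*, and in cerebellar vGluT2 IPs *Fcrls* and *Hpgds*.

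Transcript length moves with the ratios in PV and SST IPs. Over all genes, the shortest 20% had a median ratio of −0.54 and the longest 20% 0.66 in PV, −0.53 and 0.63 in SST, and 0.06 and −0.01 in cerebral Gad2 IPs. Across the 31 members, whose exon lengths run from 667 bases (*Tyrobp*) to 18313 bases (*Ptprc*), the Spearman correlation of ratio and length was 0.65 in PV, 0.58 in SST and −0.15 in cerebral Gad2. For cerebral vGluT2 it was 0.37, for cerebellar Gad2 0.31 and for cerebellar vGluT2 0.53, as a description over genes that share libraries. The part of length in the members' ratios was not tested.

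Depletion was stronger in PV, SST and vGluT2 IPs than in Gad2 IPs, by tests of the difference of ratios. The 3 cerebral tests share the Gad2 libraries. Each ratio is to the total RNA of its own line, where the members' median sums are highest in PV and SST. The part of these levels in the differences was not tested. For PV minus Gad2, 24 of 31 members were lower (28.7% of all genes) and 2 higher (24.6%), with a median difference of −2.07 (all genes 0.02). SST minus Gad2 had 22 lower (27.8%) and 2 higher (24.4%), with a median of −1.23 (all genes −0.01). Cerebral vGluT2 minus Gad2 had 28 lower (9.01%), with a median of −3.16 (all genes 0.03). In the cerebellum 30 members were lower for vGluT2 minus Gad2 (26.6%), with a median of −2.55 (all genes −0.04). Without TMM the median of all genes moves by 0.32 for PV and 0.36 for SST (by 0.10 for SST with DESeq2's size factors), and the share of higher genes among those called goes from 46.2% to 68.9% and from 46.7% to 72.1%. Relative to all genes the members' median was −2.09 with TMM and −2.09 without for PV, and −1.22 and −1.20 for SST.

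*C1qb* had the lowest differences in the 3 cerebral tests, with edgeR values of −3.73 (SE 0.375, adjusted p = 7.96e-10) for PV, −2.61 (SE 0.408, adjusted p = 4.55e-06) for SST and −4.11 (SE 0.617, adjusted p = 2.98e-06) for vGluT2. In the cerebellum *Cd53* had the lowest difference, −3.58 (SE 0.569, adjusted p = 1.9e-06). *Hpgds* was higher for PV (2.35, SE 0.558, adjusted p = 0.000699) and for SST (2.64, SE 0.547, adjusted p = 0.000175). *Ptprc* too was higher for PV (1.74, SE 0.595, adjusted p = 0.0145) and for SST (1.83, SE 0.513, adjusted p = 0.0035). Its differences also take in the total RNA of each line, and *Ptprc* ran from 0.0717 to 3.17 CPM over cerebral total RNA libraries. The part of the IPs in them was not tested. Not called for PV were *Cx3cr1* (−0.50), *Itgam* (−0.39), *Siglech* (−0.29), *Fcrls* (−0.03) and *Mpeg1* (0.68). For cerebral vGluT2 these were *Inpp5d* (−0.17), *Hpgds* (0.07) and *Ptprc* (0.62), and in the cerebellum *Fcrls* (−0.69).

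Genes of other glia and vessels went the other way in PV and SST. For PV minus Gad2, 8 of 12 astrocyte genes, 9 of 12 oligodendrocyte genes and 9 of 12 endothelial and mural genes were higher (24.6% of all genes). Their median differences were 0.95, 1.04 and 1.17. SST minus Gad2 had 11, 12 and 12 of 12 higher (24.4% of all genes), with medians of 1.47, 1.77 and 1.66. The summed level of the 12 astrocyte genes was 873 CPM (504 to 1387) in cerebral Gad2 IPs, 2073 CPM (1391 to 2483) in PV and 805 CPM (656 to 1081) in vGluT2 IPs, with *Aldoc* the most abundant in total RNA (mean 1216 CPM). For the 12 oligodendrocyte genes it was 795 CPM (432 to 1720), 1803 CPM (1260 to 2715) and 457 CPM (353 to 770.2), led by *Mbp* (mean 3152 CPM in total RNA). The 12 endothelial and mural genes summed to 30.6 CPM (18.7 to 50.5), 74.9 CPM (61.3 to 89.4) and 20.9 CPM (14.3 to 38.5), led by *Vtn* (mean 103 CPM in total RNA). The part of other cells' RNA in the members' values was not tested.

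Other genes of microglia and of the pathways they use were counted in the same way. Of all genes in cerebral Gad2 IPs, 25.4% were lower and 21.5% higher. In cerebral Gad2 IPs, of 30 other homeostatic microglia genes 18 were lower and 3 higher (median −0.91), with *Cst3* the most abundant in total RNA (mean 1411 CPM). Of 20 tested genes of disease-associated microglia 10 were lower and 4 higher (median −1.12, most abundant *Apoe*, 2487 CPM). Among interferon response genes 6 of 11 were lower (median −1.02), among other complement genes 7 of 9 (median −1.71, *C4b*, 34.3 CPM). Of genes that signal below TREM2 and CSF1R 9 of 11 were lower (median −0.99, *Inppl1*, 38.1 CPM). Ligands of microglial receptors, many of them made by neurons, had 4 of 9 lower and 3 higher (median −0.07, *Cx3cl1*, 786 CPM). Of border macrophage genes 7 of 8 were lower (median −1.88), and only 2 of 14 blood leukocyte genes were tested (1 lower).

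Markers of other cells in the same cerebral Gad2 comparison (25.4% of all genes lower, 21.5% higher) give a scale for these values. Astrocyte genes were lower for 12 of 12 (median −2.85), oligodendrocyte genes for 12 of 12 (median −2.67) and endothelial and mural genes for 12 of 12 (median −3.35). Oligodendrocyte precursor genes were lower for 6 of 6 (median −2.90, most abundant *Olig1*, 177 CPM) and ependymal and choroid plexus genes for 5 of 6, with 1 higher (median −2.34, *Ttr*, 879 CPM). Red blood cell genes were lower for 5 of 5 (median −3.63, *Hbb-bs*, 514 CPM). Of 7 marker genes of the neurons that the 4 lines target, the 5 of GABAergic neurons were higher and the 2 of glutamatergic neurons lower (median 1.64, most abundant *Slc17a7*, 1639 CPM), and no gene of the 6 genes of all neurons was called (median 0.18, *Snap25*, 1736 CPM). The members' median of −0.94 is closer to 0 than those of the astrocyte, oligodendrocyte, precursor and endothelial lists in cerebral Gad2 IPs, which was not put to a test. In cerebral vGluT2 IPs, in contrast, the members' median of −4.16 stood beside −3.23 for astrocyte, −3.66 for oligodendrocyte, −4.08 for precursor and −3.97 for endothelial and mural genes.

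HD and control IPs were compared in each line and region, and edgeR called 0 members in all 6 comparisons, as did DESeq2. Of all genes DESeq2 called 0.523% in cerebral Gad2, 0.285% in PV, 0.0136% in SST, 0.174% in cerebral vGluT2, and for the cerebellum 0.156% in Gad2 and 4.92% in vGluT2 IPs. In cerebral Gad2 IPs 29 of 31 members had a log2 fold change above 0 (median 0.68, all genes −0.01), yet none was called (0.0279% of all genes were), and 14 members, all higher, had an unadjusted p under 0.05 (9.15% of all genes). The 6 control IPs had summed levels of 256, 272, 195, 150, 187 and 362 CPM and the 6 HD IPs 386, 341, 487, 165, 317 and 711 CPM. HD IPs are higher as a group but overlap the controls, with HD replicate 4 below 5 of the 6 controls. The median was 0.45 without HD replicate 6 and 0.87 without HD replicate 4, the ends of its range over single libraries left out.

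*Itgb2* had the largest fold change there. It was at 0.898, 2.26, 1.70, 1.70, 1.28 and 3.53 CPM in control and 3.64, 2.98, 4.29, 1.88, 2.64 and 8.09 in HD IPs (1.01, SE 0.372, adjusted p = 0.536 by edgeR). *Laptm5* was at 19.99, 18.7, 14.7, 10.6, 11.2 and 30.7 CPM in control and 32.9, 25.2, 46.7, 11.8, 30.96 and 66.1 in HD IPs (0.98, SE 0.349, adjusted p = 0.536). For *C1qa* the values were 13.9, 16.1, 11.7, 10.01, 12.2 and 24.2 CPM in control and 24.3, 18.8, 35.6, 10.1, 23.9 and 61.1 in HD IPs (0.95, SE 0.347, adjusted p = 0.536). In all 3 genes HD replicate 6 is highest and HD replicate 4 lies among the controls, and without HD replicate 6 the fold changes are 0.67 for *Itgb2*, 0.70 for *Laptm5* and 0.58 for *C1qa*. Other lists in this comparison had 0 genes called by edgeR, with medians of 0.37 for other homeostatic genes, 0.11 for disease-associated genes, −0.28 for astrocyte, −0.45 for oligodendrocyte and −0.02 for endothelial and mural genes.

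The mouse with the highest cerebral Gad2 sum (711 CPM) was not the highest in the cerebellum, where its Gad2 IP had 132 CPM. In PV IPs 0 of 31 members were called (0.0340% of all genes), 1 had an unadjusted p under 0.05 (4.28%), and the median was −0.12 (from −0.21 without HD replicate 5 to −0.01 without HD replicate 3). The largest values were *Fcrls* at −0.45, *Spi1* at −0.36 (−0.16 without control replicate 6) and *Tyrobp* at 0.35 (0.10 without HD replicate 5). SST IPs had 0 called (0%) and 0 at an unadjusted p under 0.05 (1.41%), with a median of 0.27. The SST median was 0.12 without HD replicate 4, 0.39 without HD replicate 1 and 0.08 among mice whose code starts with BR, as those of all HD and 2 of 5 control IPs do. The largest values were *Fcgr3* (0.72, BR mice 0.29), *Aif1* (0.72, 0.17 without HD replicate 4) and *C1qb* (0.66, 0.26 without HD replicate 4). Cerebral vGluT2 IPs had 0 of 29 called (0.00697%) and 0 at an unadjusted p under 0.05 (7.28%), with a median of −0.45 (from −0.78 without HD replicate 2 to −0.16 without control replicate 1). *Fcrls* was at −1.13, *Itgb2* at −0.93 and *Hpgds* at 1.17, a value that is 0.03 without the HD IP that was sequenced again (3.39 CPM, other HD IPs 0.134 to 0.545 CPM) and −0.21 with replicate number as a block. *Ly86* and *Spi1* were below the filter there.

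Cerebellar Gad2 IPs had 0 of 30 members called (0.0142% of all genes) and 0 at an unadjusted p under 0.05 (2.30%), with a median of −0.26 (from −0.38 without HD replicate 1 to −0.08 without control replicate 2). *Fcrls* was below the filter, and the largest values were *Ptprc* (0.67, 0.43 without HD replicate 5), *Itgb2* (−0.66, −0.34 without control replicate 5) and *C1qb* (−0.56, −0.32 without control replicate 2). In cerebellar vGluT2 IPs, the IP comparison with the most calls over all genes (285, 2.11%), 0 of 19 tested members were called and 1 had an unadjusted p under 0.05 (15.5%), with a median of 0.30. This median was 0.15 without control replicate 1, 0.51 without control replicate 2 and 0.11 with replicate number as a block. *Itgb2* was at 1.10 (SE 0.442, adjusted p = 0.253), *Inpp5d* at −1.02 (SE 0.535, adjusted p = 0.386) and *Fcgr3* at 0.69 (SE 0.4928, adjusted p = 0.532) by edgeR, and without HD replicate 2 *Fcgr3* was at 0.43. The other 12 members were below the filter. Of the other lists, edgeR called *Cd300a* (−1.83), an inhibitory receptor, *Inppl1* (−0.62), a lipid phosphatase, and *Snap25* (−0.71) of the synapse in these IPs.

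In cerebral total RNA of the Gad2, PV and vGluT2 lines (18 libraries, without the 7 of the SST line) edgeR called 0 of 31 members between HD and control (0.141% of all genes), DESeq2 also 0 (0.800%), and 1 had an unadjusted p under 0.05 (6.62%). The median fold change was 0.06 (all genes 0.02), and its sign differs between the lines fitted alone (Gad2 0.02, PV 0.19, vGluT2 −0.09). Without single libraries it was 0.01 (PV line control replicate 2) to 0.11 (Gad2 line control replicate 3). That 1 member was *Ctss* (0.34, SE 0.0952, adjusted p = 0.255), and the largest changes, not called, were *Cd53* (0.53), *Mpeg1* (0.53) and *Ptprc* (0.47). With the SST line added *Cd53* was at 0.26, and without Gad2 line HD replicate 1 *Ptprc* was at 0.19.

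In cerebellar total RNA over both lines (14 libraries), edgeR called 11 of 31 members higher in HD (12.0% of all genes) and 1 lower (12.5%), and 19 were not called. Among the higher ones were *C1qa*, *C1qb*, *Csf1r*, *Tmem119* and *Laptm5*. The median was 0.34 (all genes −0.01), and DESeq2 called 14 higher (15.2% of all genes) and 2 lower (19.2%). The calls depend on single libraries. Without vGluT2 line control replicate 1, 2 or 3, 0 members are called, and 1 without control replicate 4. Without vGluT2 line HD replicate 1 there are 5, and 1 without replicate 2, 3 or 4. For the Gad2 line, 2 are called without control replicate 2 and 1 without HD replicate 2. With replicate number as a block, or with the share of long transcripts as a covariate, 0 are called. Same-number pairs of HD and control libraries correlate here from −0.71 to 0.27, with 3 of 7 above 0.1, so the numbers are not shown to be a block. The median was 0.30 to 0.48 without single libraries and 0.14 with the covariate.

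Line by line, the vGluT2 line (4 control, 4 HD) had 16 members higher (24.4% of all genes) and 2 lower (27.3%), with a median of 0.60. The Gad2 line alone (3 and 3) had 0 called by edgeR (0% of all genes) and 0 at an unadjusted p under 0.05 (2.22%), with a median of 0.17. Fits of single lines were chosen after seeing the data. The difference between the lines was tested, and edgeR called 1 member, *Laptm5* (0.72, SE 0.170, adjusted p = 0.0498, 0.262% of all genes higher), with 10 at an unadjusted p under 0.05 (28.9% of all genes) and 5 called by DESeq2 (12.8%). Leaving out single libraries gave 8 members without Gad2 line HD replicate 2, 4 without Gad2 line control replicate 2, 1 without vGluT2 line HD replicate 1, and 0 without any other library of either line. Summed levels in the vGluT2 line were 219, 196, 226 and 218 CPM in controls and 350, 332, 374 and 331 CPM in HD. Those of the Gad2 line were 243, 219 and 254 CPM and 263, 291 and 231 CPM. The groups do not overlap in the vGluT2 line and overlap in the Gad2 line.

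The share of counts on long transcripts splits the vGluT2 line libraries in the same way. In the vGluT2 line, genes with over 6000 exonic bases hold 32.8% to 33.7% of the counts in controls and 23.8% to 26.4% in HD. Over all genes, the shortest 20% had a median fold change of 0.37 and the longest 20% −0.68 in this line. In this line the share and genotype cannot be told apart, so the fit with the covariate named above cannot decide the part of transcript length. That part in the members' values was not tested otherwise.

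**Figure D3:**
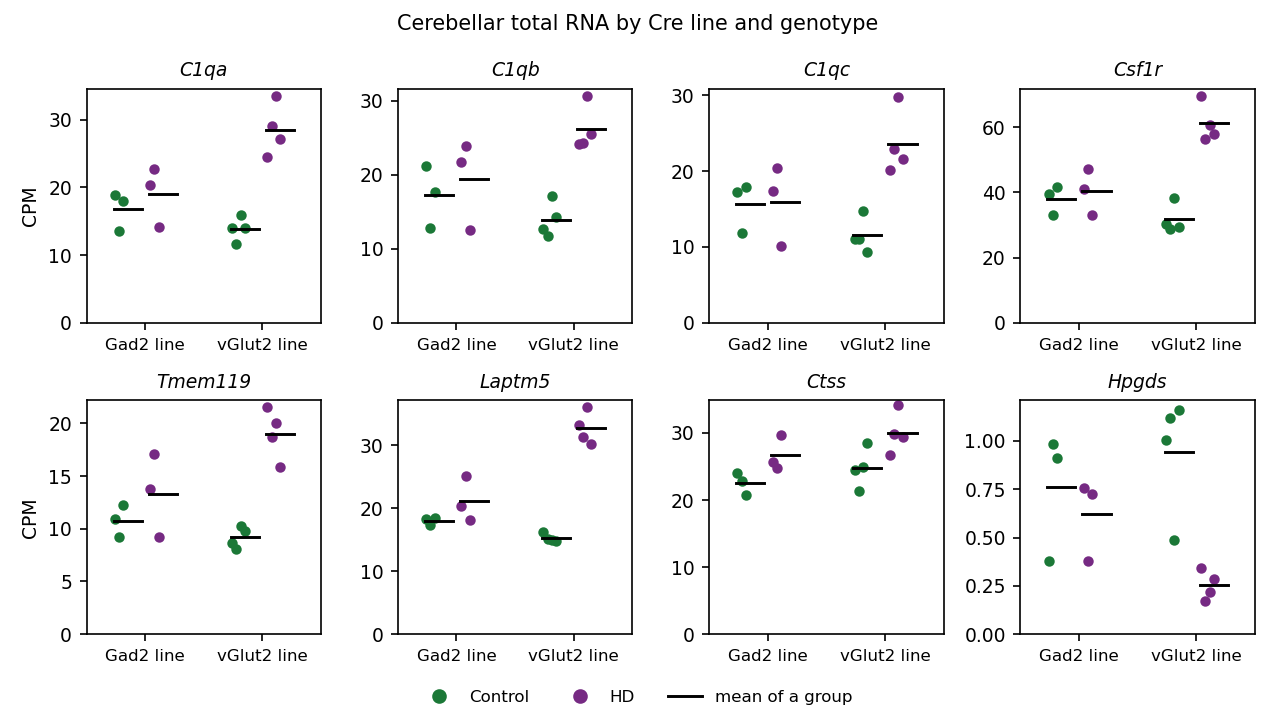
Levels in cerebellar total RNA (CPM) of 8 members in each control (green) and HD (purple) library, by line. *Laptm5* is at 14.8 to 16.2 CPM in vGluT2 line controls and at 30.2 to 36.1 CPM in HD, and at 17.3 to 18.4 and 18.1 to 25.1 CPM in the Gad2 line.

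**Figure D4:**
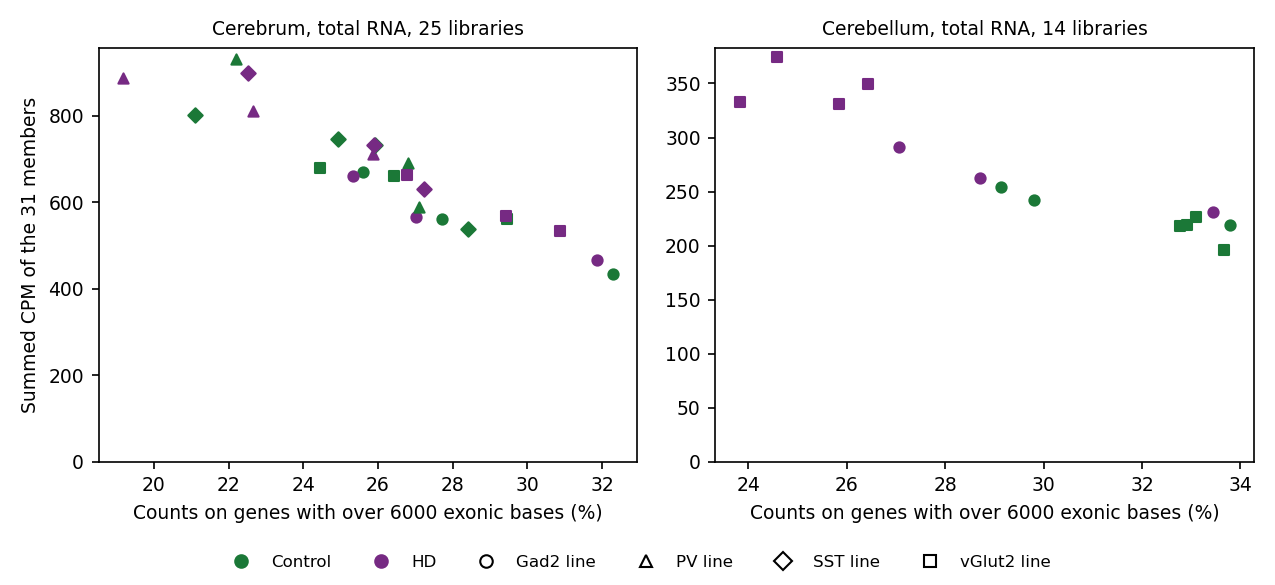
Summed level of the 31 microglia genes (CPM) against the share of counts on genes with over 6000 exonic bases (percent) in each total RNA library, by region, line and genotype. Libraries with a lower share have higher sums, up to 932 CPM in the cerebrum and 374 CPM in the cerebellum.

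By role, 2 of the 3 C1q genes were called higher over both lines (12.0% of all genes were). *C1qa* was at 14.0, 11.7, 15.9 and 14.0 CPM in the control and 24.4, 29.0, 33.4 and 27.1 in the HD libraries of the vGluT2 line. It was at 18.9, 13.5 and 18.03 CPM in the control and 20.3, 22.6 and 14.2 in the HD libraries of the Gad2 line. By edgeR its fold change was 0.60 (SE 0.146, adjusted p = 0.028) over both lines and 0.91 (SE 0.132, adjusted p = 0.000487) in the vGluT2 line. All HD libraries are above all controls in the vGluT2 line and not in the Gad2 line. *C1qb* was at 12.7, 11.7, 17.1 and 14.2 CPM in the control and 24.1, 24.3, 30.6 and 25.5 in the HD libraries of the vGluT2 line, and at 21.2, 12.8 and 17.7 CPM in the control and 21.7, 23.8 and 12.6 in the HD libraries of the Gad2 line. Its fold change was 0.52 (SE 0.158, adjusted p = 0.0364), and 0.78 (SE 0.140, adjusted p = 0.00141) in the vGluT2 line, again without overlap there. *C1qc* was at 11.1, 11.0, 14.7 and 9.28 CPM in the control and 20.1, 22.9, 29.8 and 21.6 in the HD libraries of the vGluT2 line, and at 17.3, 11.9 and 17.9 CPM in the control and 17.4, 20.4 and 10.1 in the HD libraries of the Gad2 line. It was not called over both lines, 0.53 (SE 0.187, adjusted p = 0.0507), and was called in the vGluT2 line, 0.91 (SE 0.158, adjusted p = 0.00121).

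Of the receptors, *Csf1r* was at 30.4, 28.7, 38.4 and 29.5 CPM in the control and 69.7, 56.3, 60.7 and 58.1 in the HD libraries of the vGluT2 line, and at 39.5, 33.1 and 41.6 CPM in the control and 41.0, 47.3 and 33.2 in the HD libraries of the Gad2 line. The fold change of *Csf1r* was 0.51 (SE 0.137, adjusted p = 0.0303), and 0.82 (SE 0.129, adjusted p = 0.000707) in the vGluT2 line, where HD and control libraries do not overlap. *Trem2* was at 3.37, 3.06, 2.89 and 2.53 CPM in the control and 6.07, 3.92, 7.16 and 5.12 in the HD libraries of the vGluT2 line, and at 3.22, 2.65 and 4.06 CPM in the control and 3.74, 5.51 and 2.69 in the HD libraries of the Gad2 line. For *Trem2* the fold change was 0.56 (SE 0.185, adjusted p = 0.0429), and 0.78 (SE 0.213, adjusted p = 0.0115) in the vGluT2 line, with no overlap there either. *Cx3cr1* and *P2ry12* were not called in any of these fits. *P2ry12* was at 10.1, 9.80, 5.36 and 11.8 CPM in the control and 3.72, 9.19, 4.42 and 9.59 in the HD libraries of the vGluT2 line, where the groups overlap. *Fcrls* had the largest value above 0 and was not called over both lines, 0.87 (SE 0.308, adjusted p = 0.0509), but was in the vGluT2 line, 1.06 (SE 0.338, adjusted p = 0.0234).

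*Tyrobp* was the 1 adaptor gene called over both lines, at 5.92, 4.67, 5.06 and 4.69 CPM in the control and 8.37, 8.67, 8.81 and 7.76 in the HD libraries of the vGluT2 line. Its fold change was 0.46 (SE 0.138, adjusted p = 0.0354), and 0.60 (SE 0.146, adjusted p = 0.00685) in the vGluT2 line, where no library overlaps. *Inpp5d* was called in the vGluT2 line alone, 0.61 (SE 0.181, adjusted p = 0.0176). *Tmem119* was at 8.66, 8.08, 10.3 and 9.80 CPM in the control and 21.5, 18.7, 20.01 and 15.9 in the HD libraries of the vGluT2 line, and at 10.9, 9.18 and 12.2 CPM in the control and 13.7, 17.1 and 9.19 in the HD libraries of the Gad2 line. The fold change was 0.66 (SE 0.1496, adjusted p = 0.0275), and 0.92 (SE 0.143, adjusted p = 0.000664) in the vGluT2 line, again with HD above all controls there. *Selplg* was at 8.39, 7.69, 11.2 and 8.10 CPM in the control and 19.6, 16.3, 20.3 and 14.9 in the HD libraries of the vGluT2 line (0.59, SE 0.166, adjusted p = 0.0321 over both lines). For *Itgb2* the levels were 1.97, 1.64, 1.82 and 1.496 CPM in the control and 3.68, 2.56, 3.33 and 3.70 in the HD libraries of the vGluT2 line, and 1.96, 1.82 and 2.18 CPM in the control and 2.34, 3.05 and 2.54 in the HD libraries of the Gad2 line. It was 1 of 3 members with all HD above all controls in the Gad2 line as well (with *Ctss* and *Itgam*, against 2.24% of all genes), and 0 had HD below all controls there (2.99% of all genes). The fold change of *Itgb2* was 0.65 (SE 0.152, adjusted p = 0.028) over both lines.

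*Laptm5* had the lowest adjusted p of the members. It was at 16.2, 15.1, 15.03 and 14.8 CPM in the control and 33.2, 31.3, 36.1 and 30.2 in the HD libraries of the vGluT2 line, and at 18.3, 17.3 and 18.4 CPM in the control and 20.3, 25.1 and 18.1 in the HD libraries of the Gad2 line. The fold change of *Laptm5* was 0.66 (SE 0.127, adjusted p = 0.0181), and 0.97 (SE 0.109, adjusted p = 0.000157) in the vGluT2 line, with HD above all controls there. *Cd68* was at 3.03, 2.41, 2.91 and 2.01 CPM in the control and 5.36, 3.95, 5.24 and 5.02 in the HD libraries of the vGluT2 line (0.56, SE 0.165, adjusted p = 0.034 over both lines), with no overlap. Of the transcription factors, *Spi1* was at 0.879, 1.14, 1.21 and 1.21 CPM in the control and 2.18, 1.88, 3.03 and 2.04 in the HD libraries of the vGluT2 line and called in that line alone, 0.91 (SE 0.246, adjusted p = 0.0111). *Irf8*, at 1.799, 1.85, 2.63 and 2.01 CPM in the control and 4.23, 3.38, 3.63 and 3.59 in the HD libraries of the vGluT2 line, was also called in that line alone, 0.72 (SE 0.203, adjusted p = 0.0138). In both genes all HD libraries of the line are above all controls. *Olfml3* was at 5.57, 4.95, 4.73 and 4.69 CPM in the control and 10.7, 9.21, 8.25 and 8.33 in the HD libraries of the vGluT2 line (0.44, SE 0.153, adjusted p = 0.0483 over both lines), again without overlap.

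Called lower in HD were *Hpgds*, over both lines and in the vGluT2 line, and *Ptprc* in the vGluT2 line. *Hpgds* was at 1.004, 1.12, 0.489 and 1.16 CPM in the control and 0.345, 0.171, 0.219 and 0.284 in the HD libraries of the vGluT2 line, and at 0.378, 0.986 and 0.912 CPM in the control and 0.756, 0.377 and 0.726 in the HD libraries of the Gad2 line. Its fold change was −1.25 (SE 0.389, adjusted p = 0.0379) over both lines and −2.00 (SE 0.403, adjusted p = 0.00245) in the vGluT2 line, with HD below all controls there. *Ptprc* was at 1.84, 1.58, 0.886 and 1.19 CPM in the control and 0.759, 0.739, 0.379 and 0.388 in the HD libraries of the vGluT2 line, and at 0.757, 1.05 and 0.824 CPM in the control and 0.790, 0.754 and 1.06 in the HD libraries of the Gad2 line. It was not called over both lines, −0.82 (SE 0.316, adjusted p = 0.0656), and was called in the vGluT2 line, −1.41 (SE 0.375, adjusted p = 0.0103), where HD is below all controls. In the vGluT2 line, HD lies above all controls for 17 members (28.0% of all genes) and below for these 2 (21.2%).

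Related lists in cerebellar total RNA over both lines are given beside all genes, of which 12.0% were higher and 12.5% lower. Lists with 1 gene called in a direction are near or below these shares. Of 30 other homeostatic genes 7 were higher and 2 lower (median 0.28), among them *Cd37* (0.81), *Pld4* (0.75), *Vsir* (0.45), *Mertk* (−0.86) and *Cd300a* (−1.11). Genes of disease-associated microglia had 6 of 20 higher (median 0.29), such as *Lgals3* (1.14), *Cd52* (0.68), *Ctsd* (0.55), *Cd63* (0.46) and *Csf1* (0.40). Interferon response genes had 4 of 11 higher and 1 lower (median 0.40): *Irf7* (1.41), *Usp18* (1.05), *Rtp4* (0.84), *Ifitm3* (0.74) and *Ifit2* (−1.10). Of other complement genes 2 of 10 were higher, *Serping1* (0.65) and *C4b* (0.51), and *Cd55* was lower (−1.06). Genes that signal below TREM2 and CSF1R had 1 of 11 higher, *Plcg2* (0.69), and ligands 2 of 9, *Cx3cl1* (0.50) and *Csf1*. Among border macrophage genes 1 of 8 was lower, *Cd163* (−0.88), and their sums in the vGluT2 line were 10.1, 9.78, 11.2 and 7.79 CPM in controls and 18.6, 11.5, 9.25 and 9.21 CPM in HD.

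Markers of other cells were counted too, beside 12.0% of all genes higher and 12.5% lower. Lists with 1 gene called are near or below these shares. Of 12 oligodendrocyte genes 5 were lower and 1 higher (median −0.39), and among the lower ones are *Ermn* (−1.46), *Ugt8a* (−1.11), *Mobp* (−1.05) and *Mal* (−0.68). Their sums in the vGluT2 line were 4825, 4870, 5015 and 5700 CPM in controls and 4160, 4154, 5209 and 3883 CPM in HD. Of 12 astrocyte genes 3 were lower, *Aqp4* (−1.02), *Slc1a2* (−0.88) and *Gja1* (−0.72), with sums of 5786, 5447, 5987 and 5839 CPM and 6536, 5453, 5485 and 5613 CPM. Precursor genes had 2 of 6 higher, *Cspg4* (0.48) and *Olig1* (0.48), and endothelial and mural genes 1 of 12 lower, *Abcb1a* (−1.19). Neuronal genes called were *Gad2* (−1.0), *Gad1* (−0.35), *Slc17a7* (0.57), *Snap25* (−0.89) and *Tubb3* (0.55). The part of these cells in the members' values was not tested. Genes of the other lists called in the test of the difference between the lines include *Foxj1* (1.43), *Adgrg1* (1.06) and *Mag* (0.95).

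Cerebellar total RNA held less of the microglia genes than cerebral total RNA. Among the Gad2 and vGluT2 lines (26 libraries), edgeR called 29 of 31 members lower in the cerebellum (30.2% of all genes), with a median of −1.21 (all genes 0.00). *Fcrls* had the largest difference, −2.22 (SE 0.218, adjusted p = 1.88e-09), then *Inpp5d*, −1.76 (SE 0.114, adjusted p = 6.28e-13), and *Selplg*, −1.53 (SE 0.141, adjusted p = 5.84e-10). The smallest were *Mpeg1*, −0.13 (SE 0.207, adjusted p = 0.627), and *Ptprc*, −0.60 (SE 0.333, adjusted p = 0.13), both not called, and *Ctss*, −0.82 (SE 0.0860, adjusted p = 6.55e-09). Summed levels were 196 to 374 CPM in the 14 cerebellar libraries and 434 to 680.0 CPM in the 12 cerebral ones of this test, with no overlap. Over all genes, 30.2% were lower and 24.6% higher. Other homeostatic genes had 25 of 30 lower and 3 higher (median −1.01), and genes that signal below TREM2 and CSF1R 8 of 11 lower and 1 higher (median −1.05). Genes of disease-associated microglia had 6 lower and 4 higher (median −0.02). Astrocyte genes had 6 of 12 higher and 4 lower (median 0.53), oligodendrocyte genes 7 of 12 lower (median −0.52) and endothelial and mural genes 4 of 12 higher (median 0.28).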

How the data were processed

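The 31 members and all gene lists were chosen with earlier results of these data known. Per the submitters' processing notes, reads were aligned with STAR to GRCm38.p6 with ERCC and HA tag sequences added and quantified with Salmon in nf-core/rnaseq (3.0 in the study's supplement), with no versions given for STAR and Salmon and the annotation release not stated. The authors deposited estimated counts that are not all whole (8.57% of values), and these were rounded. Library sizes are counts on mouse genes, without the 92 ERCC controls. GENCODE M21 gave gene types and exon lengths (55141 of 55401 genes matched). Tests ran in edgeR 4.0.16 (R 4.3.3) with TMM scaling on genes that code for protein and average over 10 counts across the libraries fitted, and DESeq2 1.42.0 and limma 3.58.1 served for alternatives. Levels are CPM with TMM over all 106 libraries. Figures and counts over libraries used matplotlib 3.10.9, pandas 2.3.3 and numpy 2.4.6 under Python 3.11.15.

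Named with levels were 15 members (*C1qa*, *C1qb*, *C1qc*, *Csf1r*, *Cx3cr1*, *P2ry12*, *Tmem119*, *Aif1*, *Trem2*, *Tyrobp*, *Ctss*, *Itgam*, *Spi1*, *Irf8*, *Hpgds*). Named by values were the 3 most and 3 least depleted members in each kind of IP, members called in an HD comparison, the 3 with the largest absolute HD change in each, the 3 with the largest region difference in each direction, and of each other list the most abundant gene and up to 5 genes called in an HD comparison. Other members named were chosen after their values were seen. Some genes that this rule names are not reported here. The lists are other homeostatic, disease-associated, interferon, complement, TREM2 and CSF1R signalling, receptor ligand, border macrophage, blood leukocyte, red blood cell, astrocyte, oligodendrocyte, precursor, endothelial and mural, ependymal and choroid plexus, targeted neuron and all-neuron genes.

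Alternatives were DESeq2, its size factors in edgeR, no TMM, no low count filter, total RNA of all lines, SST IPs of mice coded BR only, mouse or replicate number as a block, *Xist* level as a covariate, and leaving out single libraries (each library for the HD and region tests, and for IP against total RNA each total RNA library and each IP of a group of 5 or fewer). Fits of single lines, the test between lines in cerebellar total RNA and the share of long transcripts as a covariate were chosen after seeing the data.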

Additional observations from a re-analysis of the deposited data

Results flagged for a closer look

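In the 15 groups of 4 to 10 libraries, 240 sets of values (of the 15 members named with levels and of the sum of all 31) were searched for a library far from the others, and 17 were found, where chance marks about 1 in 20 groups. *Tyrobp* was at 4.79 CPM in control cerebellar Gad2 IP replicate 2 (others 1.12 to 2.19). In control PV IPs *P2ry12* was at 1.54 CPM in replicate 6 (others 2.63 to 3.11), and *Hpgds* at 1.05 CPM in replicate 1 (others 1.62 to 1.96). *C1qc* was at 8.999 CPM in control SST IP replicate 1 (others 4.31 to 4.81), the mouse high in red blood cell genes. Control SST total RNA replicate 4 had *C1qa* at 32.8 CPM (others 61.3 to 67.0). Control cerebral vGluT2 IP replicate 1 had *C1qa* at 6.59 CPM (others 0.714 to 2.82) and *Tyrobp* at 1.59 CPM (others 0.143 to 0.624).

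Among HD libraries, SST IP replicate 4 was high in *C1qa* (17.3 CPM, others 8.28 to 8.33), *Trem2* (4.20, others 2.19 to 2.41) and *Irf8* (4.28, others 2.49 to 2.71). SST IP replicate 2 was high in *P2ry12* (13.04 CPM, others 2.85 to 4.18). Cerebellar vGluT2 IP replicate 2 was high in *Tmem119* (1.85 CPM, others 0.477 to 0.977) and *Tyrobp* (0.639, others 0.122 to 0.272). Cerebral vGluT2 IP replicate 2 was high in *C1qb* (3.21 CPM, others 0.0202 to 1.07) and *C1qc* (2.69, others 0.626 to 0.989). The cerebral vGluT2 IP that was sequenced again was high in *Tyrobp* (4.10 CPM, others 0.125 to 0.908) and *Hpgds* (3.39, others 0.134 to 0.545).

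Tests of differences between groups called members in 5 cases. Counts here take both directions together. The depletion in IPs differed from that of cerebral Gad2 for 26 members in PV (53.3% of all genes), 24 in SST (52.2%) and 28 in vGluT2 (18.2%). From that of cerebellar Gad2 it differed for 30 in vGluT2 (49.6%). The HD difference in cerebellar total RNA differed between the lines for 1 member, *Laptm5* (1.64% of all genes).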

How the results depend on the processing

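Counts of called members in the depletion, line difference, IP and region results stayed within 1.5 times under all alternatives run. HD in cerebellar total RNA did not: against 12 members called, 0 were with replicate number as a block, 0 with the share of long transcripts as a covariate, 0 in the Gad2 line alone and 0 to 17 without single libraries, and the cause was not tested. Of cerebral total RNA, 2 members were called with the long transcript covariate against 0. The test between the lines gave 1 member, and 5 with DESeq2, 0 with DESeq2's size factors in edgeR, 0 without the low count filter, 0 with the covariate and 0 to 8 without single libraries, and the cause was not tested.

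Leaving out single total RNA libraries, and single IPs of groups of 5 or fewer, the members called lower were 19 to 24 in cerebral Gad2, 28 in PV, 27 to 28 in SST, 29 in cerebral vGluT2, 23 to 26 in Gad2 IPs of the cerebellum and 31 in its vGluT2 IPs. With all libraries, 25.4%, 35.9%, 31.2%, 28.2%, 32.7% and 31.8% of all genes were lower, in the same order. Single gene values were followed through the alternatives for 364 values, only a part of all those tested, and 198 of the 364 were called. Of these 198, 170 were called under every alternative, 28 were lost under at least 1, and 0 reversed. Replicate numbers were not used as pairs: 24 of 45 same-number pairs correlate above 0.1 (−0.71 to 0.91), among them the 3 of Gad2 cerebral total RNA (0.39 to 0.91), and no pair is from 1 mouse. In cerebral Gad2 IPs the members' sum is higher in HD than in the control of the same number in 6 of 6, and with replicate number as a block 0 members are called there (median 0.65). The limits are 3 to 6 libraries a group, 12 members below the count filter in cerebellar vGluT2 IPs, and a depth of 21905238 counts in the smallest library.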
